A study of Mus musculus with 6 samples.

Results

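A set of 9 genes best known from neurons and glia, Ngfr, Ntrk2, Ntf3, Reln, Dcx, Nes, Gfap, Gabrb2 and Pnoc, was followed through sorted cells of the fetal mouse liver. These genes were named as neural genes of hepatic stellate cells, and every probe set annotated with 1 of these symbols was used, which gave 30 of the 45101 probe sets and 9 of the 20677 genes. The genes were selected on their intensities in these same arrays, so the values below are descriptions and no test was made of them. RNA came from livers of wild type C57Bl6 embryos at E12.5, a stage counted in days of gestation, in a study that set out to isolate stellate cells carrying integrin alpha 8. Of the 6 groups, 1 was liver cells, 1 was cells carrying the adhesion molecule ALCAM (ALCAM+), and 4 were fractions of ALCAM+ cells. The fractions are called here PDPN+ and PDPN-, sorted by podoplanin, and ITGA8+ and ITGA8-, sorted by the integrin alpha 8 subunit. With 1 Affymetrix array per group there is no replicate error, and each difference is one between arrays. An intensity also depends on how its probes bind, so levels are compared between arrays and not between genes. The labels do not say how many embryos were pooled, or whether the sorts were made from the same cells. In these bulk samples fewer cells of a type and less RNA per cell cannot be told apart.

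Hepatic stellate cells are the vitamin A storing pericytes of the liver sinusoid. They arise from mesoderm of the septum transversum and the mesothelium that covers the liver, yet share a set of gene products with the nervous system, among them intermediate filaments of glia, neurotrophins with their receptors, and the guidance protein reelin. These shared genes have served as stellate cell markers in adult and injured liver. Neurotrophins are secreted survival factors that bind Trk receptor kinases and the low-affinity receptor encoded by Ngfr. Reelin is a large secreted glycoprotein that positions migrating neurons through the lipoprotein receptors encoded by Vldlr and Lrp8.

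The 4 fraction arrays share a scale, with trimmed mean intensities of 996.02 to 996.78, while the liver and ALCAM+ arrays lie lower, at 194.79 and 329.05. Intensities are therefore compared within the fractions, or between liver and ALCAM+ relative to the median shift between those arrays, and a rank within the array (the percent of probe sets with a lower value) is given where a level is set across the scales. The floor, the median of all probe set values, was an intensity of 109.0. Log2 values are of intensity + 16, and folds on this scale understate the difference of low genes. The sort markers followed the labels: Itga8 intensity was 4354 in ITGA8+, 871 in ITGA8-, 2215 in PDPN- and 737 in PDPN+, and Pdpn intensity was 4658, 6176, 117 and 7746 in the same order. ITGA8+ and PDPN- were thus the fractions with more Itga8 and less Pdpn RNA within their own sort. Of the fractions, PDPN- had the lowest sums of blood cell markers. The summed intensity of 8 megakaryocyte markers was 175 there and 14754 to 34304 in the other fractions. That of 8 macrophage markers was 380 there, 824 in ITGA8- and 1325 in ITGA8+, and PDPN+ stood apart at 26702.

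Only part of this set was detectable, and its members did not share a pattern. Of the 30 probe sets, 15 lay at or below the floor on all 6 arrays and 15 exceeded it in at least 1 fraction, against 67.6% of all probe sets that name 1 gene. With its highest probe set, each of the 9 genes exceeded the floor in at least 1 fraction, as did 70.1% of all genes, although Gfap and Ntrk2 did so narrowly. Ngfr, Reln and Dcx were higher in PDPN- than in PDPN+ and higher in ITGA8+ than in ITGA8-, as Itga8 itself was. Pnoc was lower in both. The highest probe sets of Ntrk2 and Gabrb2 were higher in both too, but their PDPN values were below the floor, and the 4 detected Gabrb2 probe sets differed in sign between the ITGA8 fractions (-0.22 to 0.93 on the log2 scale). Gabrb2 was high in both ITGA8 fractions and below the floor in both PDPN fractions, and both detected Nes probe sets were higher in either ITGA8 fraction than in either PDPN fraction. The direction of Itga8 in both sorts was thus seen for Ngfr and Reln with every fraction value above the floor. It was also seen for Dcx, but with PDPN+ below the floor on both detected probe sets. Pnoc had the opposite direction in both sorts, and its values do not bear out the name of a stellate gene. The detected probe sets of Ntf3 and Nes also departed from Itga8, being higher in PDPN+ than in PDPN-.

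**Figure D1:**
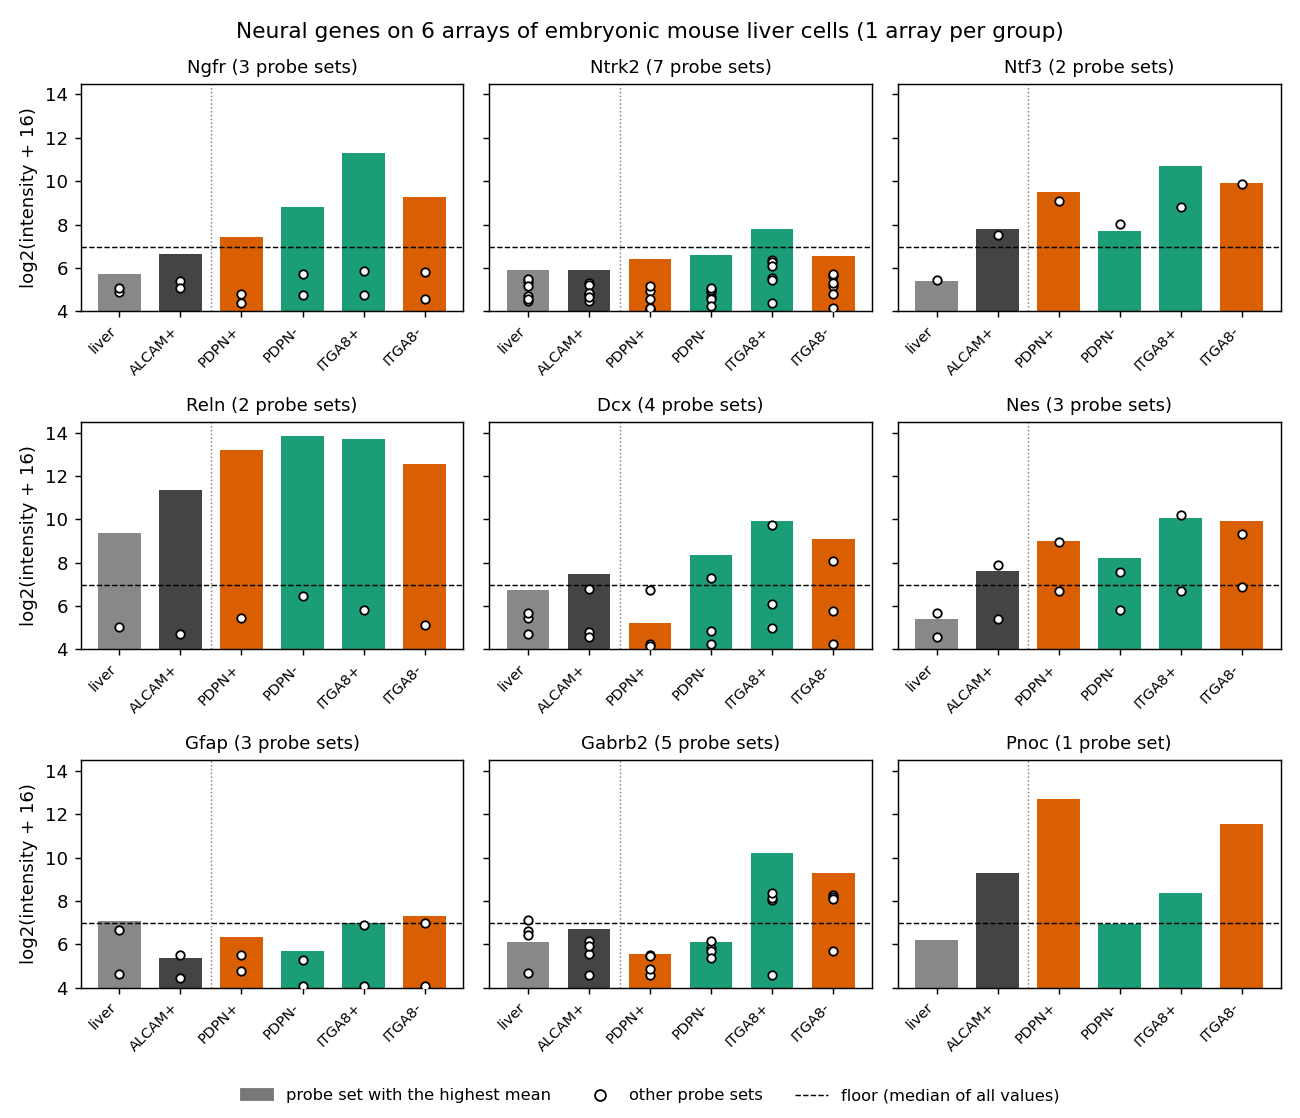
Log2(intensity + 16) of each gene on the 6 arrays; bars are the probe set with the highest mean and start at an intensity of 0, open circles are the other probe sets, and the dashed line is the floor of 109.0. Green marks PDPN- and ITGA8+, orange PDPN+ and ITGA8-, and the dotted line separates liver and ALCAM+, which are on another scale. By the highest probe set, Reln is above the floor on every array, Gfap is between 25 and 144, and Pnoc is tall in the orange bars.

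Because Reln, Ngfr and Dcx were each higher in PDPN- and in ITGA8+ within their sorts, their promoters are shown side by side, as RefSeq gives them on GRCm38.p6. Each window runs from 250 bases before to 50 after the annotated start. Reln is on the minus strand at chr5:22344656-22344955, Ngfr on the minus strand at chr11:95587649-95587948, and Dcx on the minus strand at chrX:143933170-143933469, the more upstream of its 2 starts. The table matched 8 of the 9 genes, and Pnoc was the other. Capitals mark GGGCGG, the GC box read by Sp1-type factors, TATAAA, the TATA box core, and TAATTA, a core read by homeodomain factors, each searched on both strands, so that GGGCGG can appear as CCGCCC.
Reln: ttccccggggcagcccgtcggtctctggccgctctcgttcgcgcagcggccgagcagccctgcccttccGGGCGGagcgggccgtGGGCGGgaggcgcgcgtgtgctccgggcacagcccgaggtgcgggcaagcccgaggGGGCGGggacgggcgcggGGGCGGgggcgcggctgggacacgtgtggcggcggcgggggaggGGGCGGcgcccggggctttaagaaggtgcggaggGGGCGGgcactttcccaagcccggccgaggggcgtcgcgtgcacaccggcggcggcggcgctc
Ngfr: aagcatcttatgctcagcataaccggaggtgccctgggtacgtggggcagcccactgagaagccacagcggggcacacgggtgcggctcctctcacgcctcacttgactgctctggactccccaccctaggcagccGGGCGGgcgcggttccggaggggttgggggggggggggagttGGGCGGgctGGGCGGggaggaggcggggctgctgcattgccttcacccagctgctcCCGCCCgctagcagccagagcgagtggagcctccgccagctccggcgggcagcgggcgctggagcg
Dcx: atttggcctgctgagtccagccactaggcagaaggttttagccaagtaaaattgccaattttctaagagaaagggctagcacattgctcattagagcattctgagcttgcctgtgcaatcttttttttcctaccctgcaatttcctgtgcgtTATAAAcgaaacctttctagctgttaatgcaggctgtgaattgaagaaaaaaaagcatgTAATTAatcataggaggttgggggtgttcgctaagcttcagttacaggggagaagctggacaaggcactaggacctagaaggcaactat
The 3 promoters were unlike in composition. The Reln window was 80.7% G and C with 47 CpG dinucleotides, more than in 98.6% of the 32851 windows of the table, whose medians are 52.7% and 7. It held GGGCGG 6 times, and the Ngfr window, with 71.7% G and C and 23 CpG, held it 4 times, where 35.7% of all windows hold it at least once. The Dcx window was 43.0% G and C with 3 CpG, and had no GGGCGG. It held TATAAA once and TAATTA once, which 13.6% and 5.29% of all windows hold. A match describes the letters only.

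Receptors of neurotrophins were the first group. Ngfr encodes the low-affinity neurotrophin receptor of the tumour necrosis factor receptor family. Of its 3 probe sets, 1 was detected, with an intensity of 2466 in ITGA8+ against 602 in ITGA8-, and 436 in PDPN- against 154 in PDPN+, with 84 for ALCAM+ and 36 for liver. ITGA8+ stood well above the other fractions, and PDPN+ was the lowest of the 4. Ngfr was 4.02-fold higher in ITGA8+ than in ITGA8-, rank 48 from the top of 13874 genes, and 2.66-fold higher in PDPN- than in PDPN+. It was the only member 2-fold higher on both counts, which held for 0.876% of all genes. Its other probe sets stayed at 5 to 41 on all arrays and show nothing on the direction.

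Ntrk2 encodes TrkB, the receptor kinase of brain-derived neurotrophic factor and neurotrophin-4. Of 7 probe sets, 6 were below the floor everywhere. The remaining probe set read 203 in ITGA8+ against 76 in ITGA8-, and 79 in PDPN- against 68 in PDPN+, with 43 for ALCAM+ and 43 for liver. Only the ITGA8+ value exceeded the floor, at 2.38-fold that of ITGA8-. The ITGA8- value being below the floor, this fold depends on the pseudocount, and the difference was 0.93 on the log2 scale with a pseudocount of 64.

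Ntf3, which encodes the ligand neurotrophin-3, was detected by both of its probe sets. The higher probe set had 1652 in ITGA8+ against 956 in ITGA8-, and 195 in PDPN- against 702 in PDPN+, with 204 for ALCAM+ and 26 for liver, and the other had 434 against 915 in ITGA8-, and 248 against 533 in PDPN+, with 166 for ALCAM+ and 28 for liver. Both probe sets put PDPN+ above PDPN-, by 3.4-fold and 2.08-fold. They went opposite ways between the ITGA8 fractions, at 0.78 and -1.05 on the log2 scale for ITGA8+ minus ITGA8-, so no direction is given for that comparison. Between ITGA8+ and PDPN+ they also differed in sign, at 1.22 and -0.29. What they share is a lower level in PDPN- than in the other 3 fractions.

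The other neurotrophin genes did not follow Ngfr as a group. Of 15 further ligands, receptors and co-receptors measured, 11 were above the floor in each within-sort comparison. Between PDPN+ and PDPN-, 5 of 11 were 2-fold higher and 2 lower, with a median of 0.49 on the log2 scale, where 19.9% of all genes were higher, 7.89% lower and the median was 0.04. Between ITGA8+ and ITGA8-, 0 of 11 were higher and 3 lower, with a median of -0.58 against 0.00 over all genes; 5.36% of all genes were higher and 5.98% lower. Ntf5, the neurotrophin-4 gene, had the same order as the higher Ntf3 probe set: 1454 in ITGA8+ and 1192 in ITGA8-, with 556 in PDPN+ and 159 in PDPN-. Bdnf, for brain-derived neurotrophic factor, was higher on the other side, at 325 in PDPN+ and 279 in ITGA8- against 72 in PDPN- and 93 in ITGA8+. Nradd, a death domain relative of Ngfr, showed that order too, with log2 differences of 1.86 for PDPN+ minus PDPN- and -1.76 for ITGA8+ minus ITGA8-.

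Among Trk receptors, Ntrk3, the neurotrophin-3 receptor TrkC, was at 405 in ITGA8+, 389 in ITGA8-, 140 in PDPN- and 40 in PDPN+. It was 2.91 higher on the log2 scale in ITGA8+ than in PDPN+ and did not differ between the ITGA8 fractions by more than 0.06. Sort1, the sorting receptor that partners with Ngfr, was at 1985 in ITGA8+ and 932 to 1194 in the other fractions. Of the partners of Ngfr in myelin inhibition, Lingo1 was 3.30 higher on the log2 scale in PDPN+ than in PDPN-, and Rtn4r, with at most 205, was at -1.14 there, the direction of Ngfr, and at -1.30 for ITGA8+ minus ITGA8-, the opposite direction.

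Reln encodes reelin. Its main probe set had 13250 in ITGA8+ against 6008 in ITGA8-, and 14543 in PDPN- against 9305 in PDPN+, with 2612 for ALCAM+ and 645 for liver. Within each array this put it above 90.0% of probe sets in liver, 95.9% in ALCAM+ and 94.7% to 98.6% in the fractions. It was 2.2-fold higher in ITGA8+ than in ITGA8- and 1.56-fold higher in PDPN- than in PDPN+. PDPN- and ITGA8+ had the higher values, and ITGA8- the lowest of the 4. ALCAM+ was 2.13-fold higher than liver relative to the shift, which passed 2-fold neither on averaging both probe sets (0.1 on the log2 scale) nor with quantile normalisation (0.96). The second Reln probe set reached at most 73.

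The rest of the reelin pathway was detected in all fractions. All 11 other pathway genes were above the floor in each comparison of fractions. Between ITGA8+ and ITGA8-, 0 of 11 were 2-fold different in either direction (median -0.38), and between PDPN+ and PDPN- 1 was higher and 1 lower (median 0.08), where 11.3% and 27.8% of all genes differed 2-fold either way, so nothing particular to the list is read from these counts. The receptor gene Vldlr was at 1609 to 2593 in the fractions. Lrp8, the other reelin receptor gene, was at 1279 in PDPN- and 487 in PDPN+, a log2 difference of -1.36, and at 868 in both ITGA8 fractions. Dab1, the adaptor that the receptors signal through, was at 619 in ITGA8+, 597 in ITGA8-, 252 in PDPN+ and 138 in PDPN-. The integrin gene Itga3, a reelin binding partner also expressed by mesothelium, was 2.41 higher in PDPN+ on the log2 scale.

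**Figure D2:**
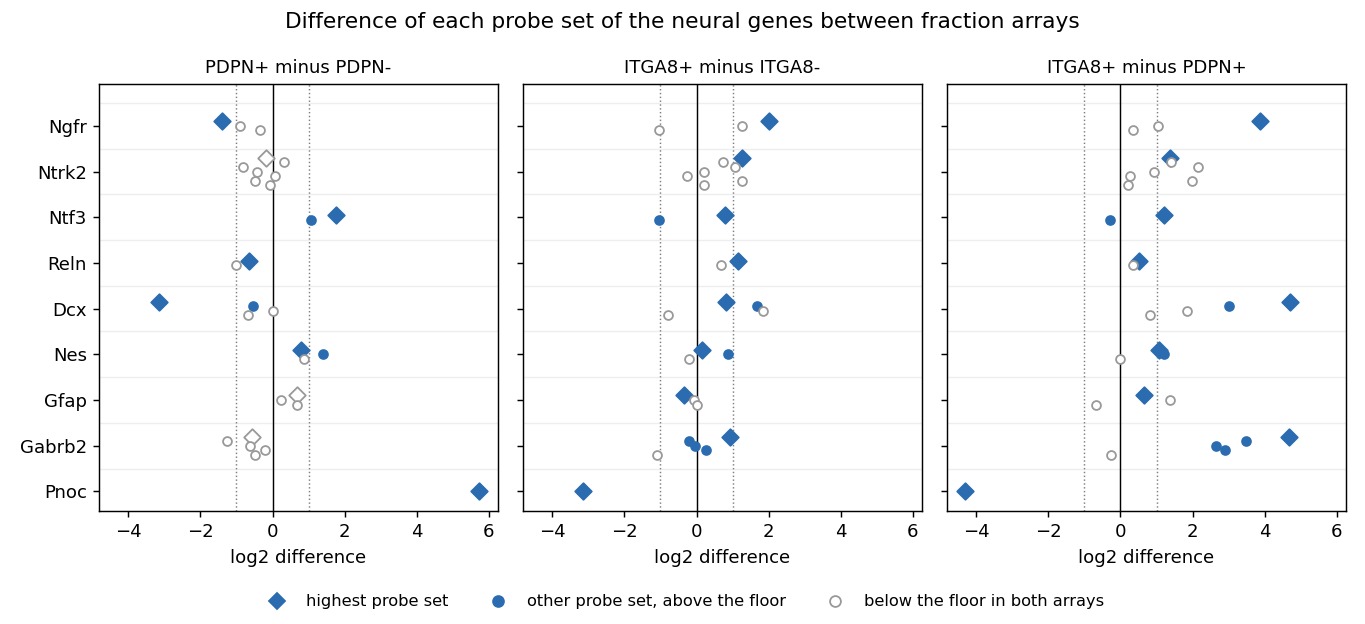
Log2 difference of every probe set of the 9 genes in 3 comparisons of fraction arrays; diamonds are the highest probe set, filled circles other probe sets above the floor of 109.0, open symbols those below it in both arrays, and dotted lines mark 2-fold. The 2 Ntf3 probe sets point opposite ways for ITGA8+ minus ITGA8-, and the 4 detected Gabrb2 probe sets lie at -0.22 to 0.93 there and at 2.64 to 4.67 for ITGA8+ minus PDPN+.

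Dcx encodes doublecortin, a microtubule-binding protein of migrating neuroblasts. Of 4 probe sets, 2 were detected. The higher had 950 in ITGA8+ against 533 in ITGA8-, and 314 in PDPN- against 21 in PDPN+, with 163 for ALCAM+ and 91 for liver, and the other had 849 against 254 in ITGA8-, and 141 against 92 in PDPN+, with 96 for ALCAM+ and 28 for liver. Both had ITGA8+ highest, ITGA8- next, then PDPN-, and PDPN+ lowest of the fractions. The sizes differed: PDPN- exceeded PDPN+ by 8.92-fold on the higher probe set, rank 8 of 13428 from that end, but by 1.45-fold on the other. ITGA8+ exceeded ITGA8- by 1.76-fold and 3.2-fold, and PDPN+ by 26.1-fold and 8.01-fold. PDPN+ is below the floor on both, so these folds over PDPN+ depend on the pseudocount.

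Among the relatives of doublecortin, Dclk1, a doublecortin-like kinase, was at 2180 in ITGA8+ and 2351 in ITGA8-, with 966 in PDPN+ and 113 in PDPN-, which is 2.93 on the log2 scale for PDPN+ minus PDPN-, the opposite sign to Dcx. Dclk2 was at 209 and 234 in the ITGA8 fractions and below the floor in the PDPN fractions. Of the other microtubule genes on the list, Stmn2 was 2.76 higher in PDPN+ than in PDPN- and 1.60 lower in ITGA8+ than in ITGA8-, and Map1b was 2.62 higher in PDPN+. Mapt, the tau gene, was 1.16 higher in ITGA8+ than in PDPN+. In all, 3 of 5 relatives above the floor were 2-fold higher in PDPN+ and 0 lower, and 0 of 7 were higher and 1 lower in ITGA8+ than in ITGA8-, where 19.9% and 7.89%, and 5.36% and 5.98%, of all genes were. The neuronal tubulin gene Tubb3 stayed at 2 to 34 in the fractions.

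Of the intermediate filament genes, Nes was detected in each fraction and Gfap only near the floor. Nes encodes nestin, a filament protein of neural stem cells and of pericytes. Its highest probe set had 1050 in ITGA8+ against 949 in ITGA8-, and 281 in PDPN- against 496 in PDPN+, with 180 for ALCAM+ and 26 for liver, and the next had 1147 against 617 in ITGA8-, and 176 against 486 in PDPN+, with 222 for ALCAM+ and 35 for liver. Both probe sets placed the ITGA8 fractions above the PDPN fractions and PDPN- lowest. PDPN+ exceeded PDPN- by 1.72-fold and 2.61-fold, and ITGA8+ exceeded ITGA8- by 1.1-fold and 1.84-fold. ALCAM+ was 2.5-fold higher than liver relative to the shift with either probe set, but liver was below the floor, and the log2 difference of the highest probe set ranged from 0.66 with a pseudocount of 64 to 2.29 with quantile normalisation.

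Gfap encodes glial fibrillary acidic protein, the filament of astrocytes and a classical marker of adult stellate cells. Its highest probe set had 110 in ITGA8+ against 144 in ITGA8-, and 35 in PDPN- against 65 in PDPN+, with 25 for ALCAM+ and 118 for liver. Of the fractions, ITGA8- and ITGA8+ were at or just above the floor and the PDPN fractions below it. Liver exceeded ALCAM+ by 6.1-fold relative to the shift, and by 3.27-fold as deposited. ALCAM+ being below the floor, the log2 difference depended on the pseudocount, from -3.14 with 1 to -1.81 with 64. The other 2 probe sets did not exceed the floor on any array. Within the array, Gfap ranked above 68.2% of probe sets in liver and 31.4% in ALCAM+.

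Vim, the vimentin gene of all mesenchyme, was at 11008 to 18928 in the fractions, and Des, encoding desmin, a stellate and muscle filament, at 562 in ITGA8+, 392 in ITGA8-, 315 in PDPN- and 306 in PDPN+. Synm, for synemin, was at most at 99. Of the neurofilament genes, Nefl was at 534 in ITGA8-, 336 in ITGA8+, 110 in PDPN+ and 17 in PDPN-. Nefm was at 135 in ITGA8+ and 26 in PDPN+, 1.85 apart on the log2 scale. Prph, for peripherin of peripheral neurons, was above the floor only in PDPN-, at 183. Between ITGA8+ and ITGA8- 0 of 5 filament genes above the floor differed 2-fold either way, and between PDPN+ and PDPN- 1 of 4 was higher and 1 lower, where 11.3% and 27.8% of all genes differed either way; nothing particular to filament genes is read from this.

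Gabrb2 encodes the beta-2 subunit of the GABA-A receptor, a ligand-gated chloride channel. Of 5 probe sets, 4 were detected. The highest had 1179 in ITGA8+ against 612 in ITGA8-, and 54 in PDPN- against 31 in PDPN+, with 90 for ALCAM+ and 53 for liver. The 3 others above the floor were at 251 to 311 in ITGA8+ and 255 to 295 in ITGA8-, against 8 to 55 in the PDPN fractions. All 4 therefore separated the ITGA8 from the PDPN sort without overlap, with ITGA8+ higher than PDPN+ by 6.22-fold to 25.4-fold, folds that depend on the pseudocount since PDPN+ was below the floor on each, and none of the 4 differed 2-fold between ITGA8+ and ITGA8-. On the highest probe set both ITGA8 arrays were at least 2-fold above both PDPN arrays, which held for 5.29% of all genes and for no other member.

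A difference between the sorts cannot be told apart from any other difference between those pairs of arrays. Erythroid markers differed the same way: all 7 were 2-fold higher in ITGA8+ than in PDPN+, where 16.2% of all genes were. The summed intensity of these markers was 34979 in ITGA8+ and 27330 in ITGA8- against 6263 and 3565 in the PDPN fractions. In liver, where the erythroid sum was 27784 on the lower scale, the highest Gabrb2 probe set read 53, a rank above 54.2% of probe sets, against 77.0% in ITGA8+ and 66.2% in ITGA8-. The 3 others did not separate liver in this way: they ranked above 59.4% to 69.0% of probe sets in liver, 35.8% to 47.0% in ALCAM+ and 53.6% to 58.8% in the ITGA8 fractions. Sox10, a neural crest and glial transcription factor, was also higher in the ITGA8 sort, at 393 and 238 against 4 and 25, but on 1 of its 3 probe sets, and the other probe sets were at most at 58 on any array. The part of erythroid cells or of Sox10-expressing cells in the Gabrb2 result was not tested.

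Other GABA-A subunit genes were detected too. Gabra3 was at 647 in ITGA8-, 495 in ITGA8+, 233 in PDPN+ and 53 in PDPN-. Gabrb1 was at 222 in both ITGA8 fractions, 182 in PDPN+ and 18 in PDPN-. Gabra5, at 191 and 189 in the ITGA8 fractions and 33 and 2 in PDPN+ and PDPN-, had the split between sorts that Gabrb2 had. Gabra4 followed Pnoc instead, 4.11 higher in PDPN+ than in PDPN- and 2.06 lower in ITGA8+ than in ITGA8- on the log2 scale. The gamma subunit genes and the GABA synthesis genes Gad1 and Gad2 were below the floor in all fractions, with at most 58 and 49. Slc6a13, a GABA and taurine transporter of liver cells, was at 5108 in PDPN- and 1933 in PDPN+. Of the genes on this list other than Gabrb2, 5 of 7 above the floor were 2-fold higher and 1 lower in PDPN+ than in PDPN-, and 0 of 10 higher and 2 lower in ITGA8+ than in ITGA8-, namely Gabra4 and the vesicular transporter gene Slc32a1 at -1.42. Over all genes these shares were 19.9% and 7.89%, and 5.36% and 5.98%.

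Pnoc encodes prepronociceptin, the precursor of the opioid-related peptide nociceptin. It has 1 probe set, with 320 in ITGA8+ against 2956 in ITGA8-, and 108 in PDPN- against 6625 in PDPN+, with 610 for ALCAM+ and 58 for liver. PDPN+ and ITGA8- were both far above the other fractions. PDPN+ exceeded PDPN- by 53.6-fold, rank 34 from the top (5.26 to 5.93 on the log2 scale over the alternatives, PDPN- being just below the floor), and ITGA8+ was 8.85-fold lower than ITGA8-, rank 3 from the bottom of 13874 genes. Only 2.41% of all genes were 2-fold higher in both PDPN+ and ITGA8-, and of the members Pnoc alone. ALCAM+ exceeded liver by 4.53-fold relative to the shift, the largest of the members in this direction.

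The 12 mesothelial markers summed to 58933 in PDPN+, 45378 in ITGA8-, 18839 in ITGA8+ and 1499 in PDPN-, the same order as Pnoc. All 12 were 2-fold higher in PDPN+ than in PDPN-, as were 19.9% of all genes. In ITGA8+ against ITGA8-, 10 of 12 were 2-fold lower, as were 5.98% of all genes. Macrophage and megakaryocyte markers were 2-fold higher in PDPN+ than in PDPN- as well, 8 of 8 in each list, and macrophage markers summed to 824 in ITGA8- and 1325 in ITGA8+. The part of any of these cells in the Pnoc result was not tested. By the distance between mean-centred log2 profiles over the 4 fractions, Pnoc was the 229th nearest of 14502 genes to the mesothelial gene Upk3b and the 14481st to the retinol storage gene Lrat. Oprl1, the nociceptin receptor gene, was at 423 in PDPN+, 351 in ITGA8-, 281 in ITGA8+ and 34 in PDPN-. Penk, the enkephalin precursor gene, was at 545, 486, 383 and 81 in that order. Pdyn and the opioid receptor genes Oprm1 and Oprd1 were below the floor in all fractions. Oprk1 reached 129 in ITGA8+, and Pomc 394 there, 1.59 and 1.03 above PDPN+ on the log2 scale.

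**Figure D3:**
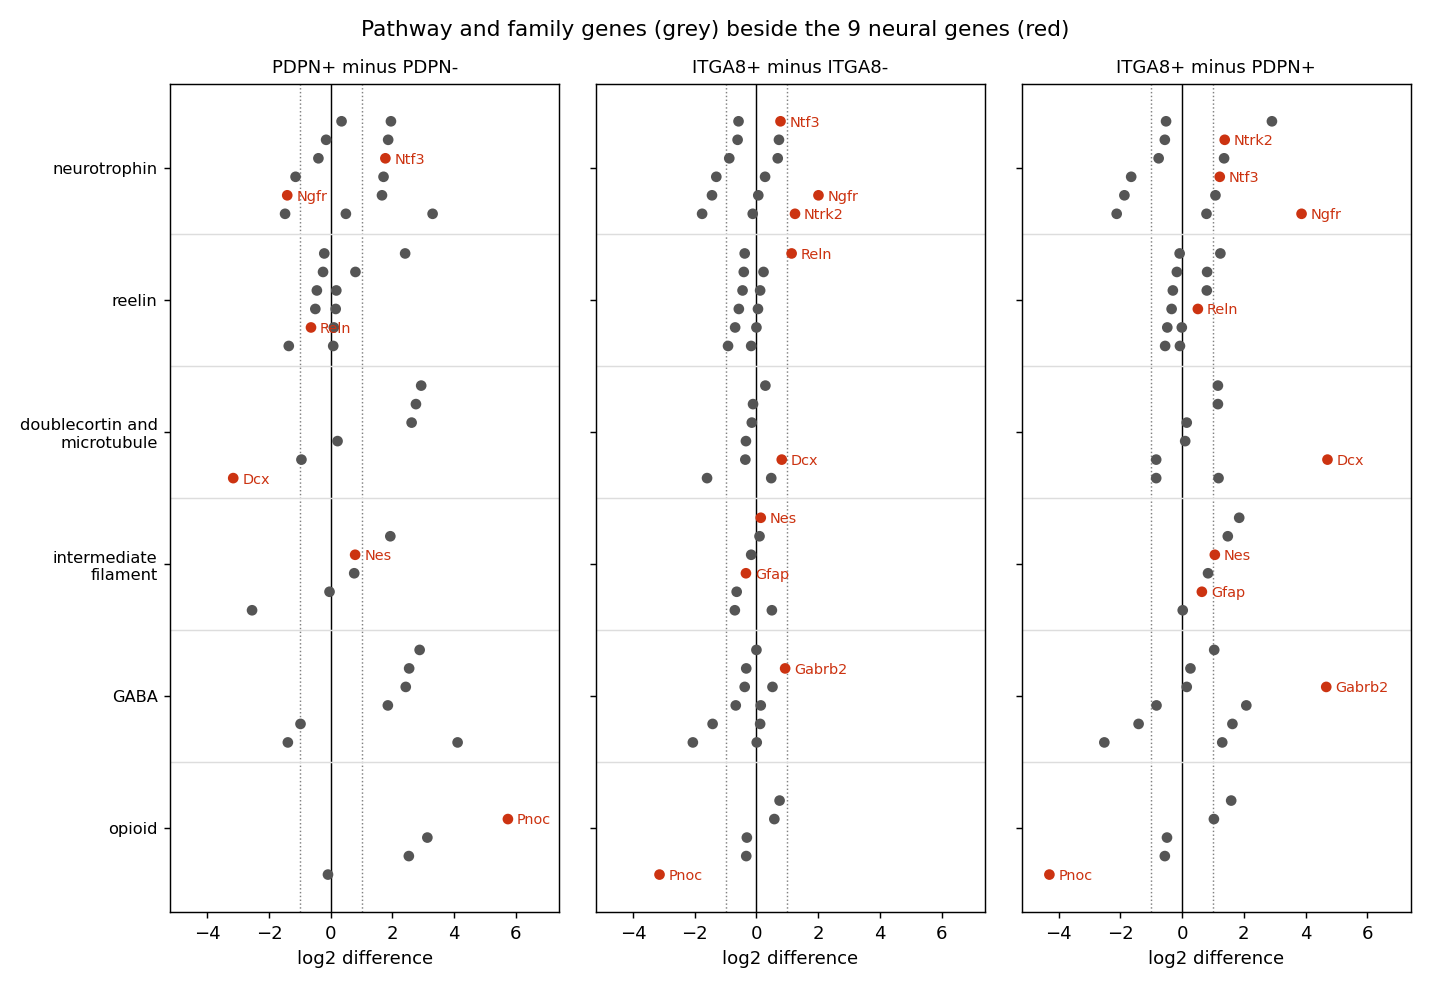
Log2 differences of the 9 neural genes (red) and of the other genes of their pathway or family lists (grey) above the floor of 109.0, in 3 comparisons of fraction arrays; dotted lines mark 2-fold and the vertical offset within a list only separates points. Ngfr, Reln, Dcx and Gabrb2 lie at the upper end of their lists for ITGA8+ minus ITGA8-, and Pnoc at the lower end of its own.

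Counted over the set, members were 2-fold higher and lower in PDPN+ in equal number. Of the 6 above the floor in that comparison, Ntf3 and Pnoc were higher and Ngfr and Dcx lower, where 19.9% and 7.89% of 13428 genes were. Between ITGA8+ and ITGA8- all 9 were above the floor, 3 were 2-fold higher (Ngfr, Ntrk2 and Reln) and 1 lower (Pnoc), where 5.36% and 5.98% of 13874 genes were; the median was 0.82 over the members and 0.00 over all genes. Averaging all probe sets of a gene, detected or not, left 0 members higher in this comparison and 0 lower in PDPN+ minus PDPN-. Averaged in this way, Ntrk2 was below the floor in the former, and Ngfr and Dcx in the latter. Between ITGA8+ and PDPN+, which share those arrays with both splits, 6 of 9 were higher and 1 lower, where 16.2% and 14.2% of 14101 genes were, or 30.4% either way. Relative to the shift, 4 of 6 members were higher in ALCAM+ than in liver (Reln, Nes, Ntf3 and Pnoc) and Gfap was lower, where 15.5% and 11.3% of 10982 genes were. The members were chosen with these contrasts known, so nothing is read from these shares.

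A second pattern separated the sorts. Both ITGA8 arrays were above both PDPN arrays for 6 of the 9 members (Ngfr, Dcx, Gfap, Nes, Ntf3 and Gabrb2), where 32.2% of 14503 genes above the floor in any fraction were; the other detected Ntf3 probe set did not share this, with 434 in ITGA8+ and 533 in PDPN+. No member had both PDPN arrays 2-fold above both ITGA8 arrays, as 2.94% of genes did. Averaged over each pair on the log2 scale, the ITGA8 arrays exceeded the PDPN arrays by 15.1-fold for Gabrb2, 6.59-fold for Dcx, 4.47-fold for Ngfr, 3.27-fold for Ntf3, 2.6-fold for Nes and 2.21-fold for Gfap, with a median of 0.18 on the log2 scale over all genes. Values below the floor enter the means of Gabrb2, Dcx and Gfap, so those folds depend on the pseudocount. Of the other 3 members, Ntrk2 was at 0.67 on the log2 scale, Pnoc at 0.14 and Reln at -0.38. ALCAM+ gave intermediate ranks for several of these: the highest Dcx probe set was above 64.5% of probe sets in ALCAM+, 74.2% in ITGA8+, 64.2% in ITGA8-, 61.9% in PDPN- and 21.4% in PDPN+. The highest Gabrb2 probe set was above 55.1% in ALCAM+, 77.0% and 66.2% in ITGA8+ and ITGA8-, and 26.7% and 38.6% in PDPN+ and PDPN-.

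**Figure D4:**
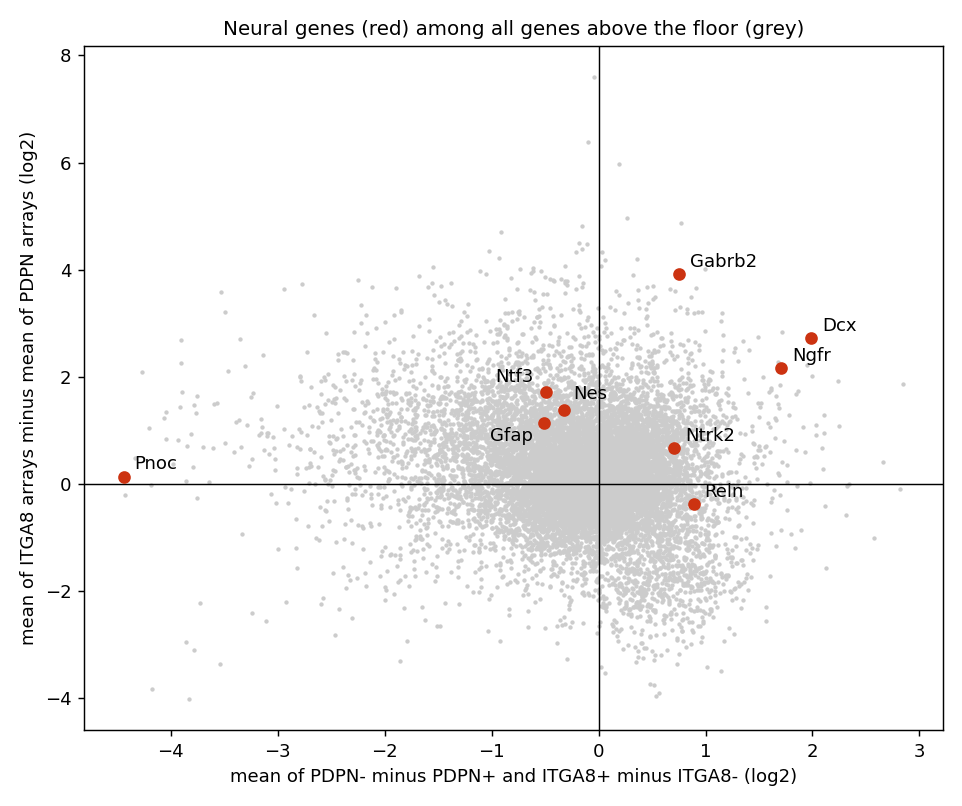
Each gene above the floor in any fraction (grey, 14503 genes) by the mean of PDPN- minus PDPN+ and ITGA8+ minus ITGA8- (horizontal, log2) and by the mean of the ITGA8 arrays minus that of the PDPN arrays (vertical, log2), with the 9 neural genes in red. Dcx, at 1.99 and 2.72, and Ngfr, at 1.71 and 2.16, lie to the upper right, Gabrb2 at the top with 3.92, and Pnoc far left at -4.44.

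Markers of neurons and of neural crest derivatives were in part below the floor. Of 10 neuronal markers, 4 were above the floor in PDPN+, 1 in PDPN- and 6 in each ITGA8 fraction, and they summed to 1461, 296, 1816 and 1995 in PDPN+, PDPN-, ITGA8+ and ITGA8-. Rbfox3 made up much of these sums, with 765, 18, 766 and 980. Tubb3 and Syn1 were below the floor on every array, though neither was at 0. The list of neural crest, Schwann and enteric glia genes summed to 4091 to 6583 in the fractions, mostly from Ednrb and Erbb3, while Foxd3, S100b and Ret were among those below the floor throughout. The part of neurons or crest-derived cells in the levels of the members was not tested.

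Stellate markers were detected in every fraction, and their sum was highest in ITGA8+. All 12 were above the floor in ITGA8+ and in PDPN-, and 11 in PDPN+ and in ITGA8-, where Lrat was at 9 and 36. They summed to 40526 in ITGA8+, 29697 in ITGA8-, 23557 in PDPN+ and 16147 in PDPN-, and Lrat was at 193 in ITGA8+ and 231 in PDPN-. The list did not have 1 order: Foxf1 was highest in PDPN+ (7981), Lrat in PDPN-, and Hgf, Pdgfrb and Ecm1 in ITGA8- (856, 3518 and 5106). Between PDPN+ and PDPN- 3 of 12 were 2-fold higher (Foxf1, Ecm1 and Hand2, at 1.67, 1.66 and 1.52 on the log2 scale) and 1 lower (Lrat). Over all genes these shares were 19.9% and 7.89%. In ITGA8+ against ITGA8-, 4 of 12 were higher (Lrat, Colec10, Colec11 and Lhx2) and 0 lower, where 5.36% and 5.98% of all genes were. Lhx2, a transcription factor of stellate cells, was at 1313 in ITGA8+, 595 in ITGA8-, 427 in PDPN- and 262 in PDPN+, which is also the order of Ngfr and Dcx. Megakaryocyte markers were 2-fold higher in ITGA8+ than in ITGA8- in 7 of 8, where 5.36% of all genes were, in the same direction as Ngfr and Reln. The megakaryocyte sum was 175 in PDPN-, where Reln was at 14543 and Ngfr at 436, above their levels in PDPN+. The part of megakaryocytes in the levels of Ngfr and Reln was not tested.

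**Figure D5:**
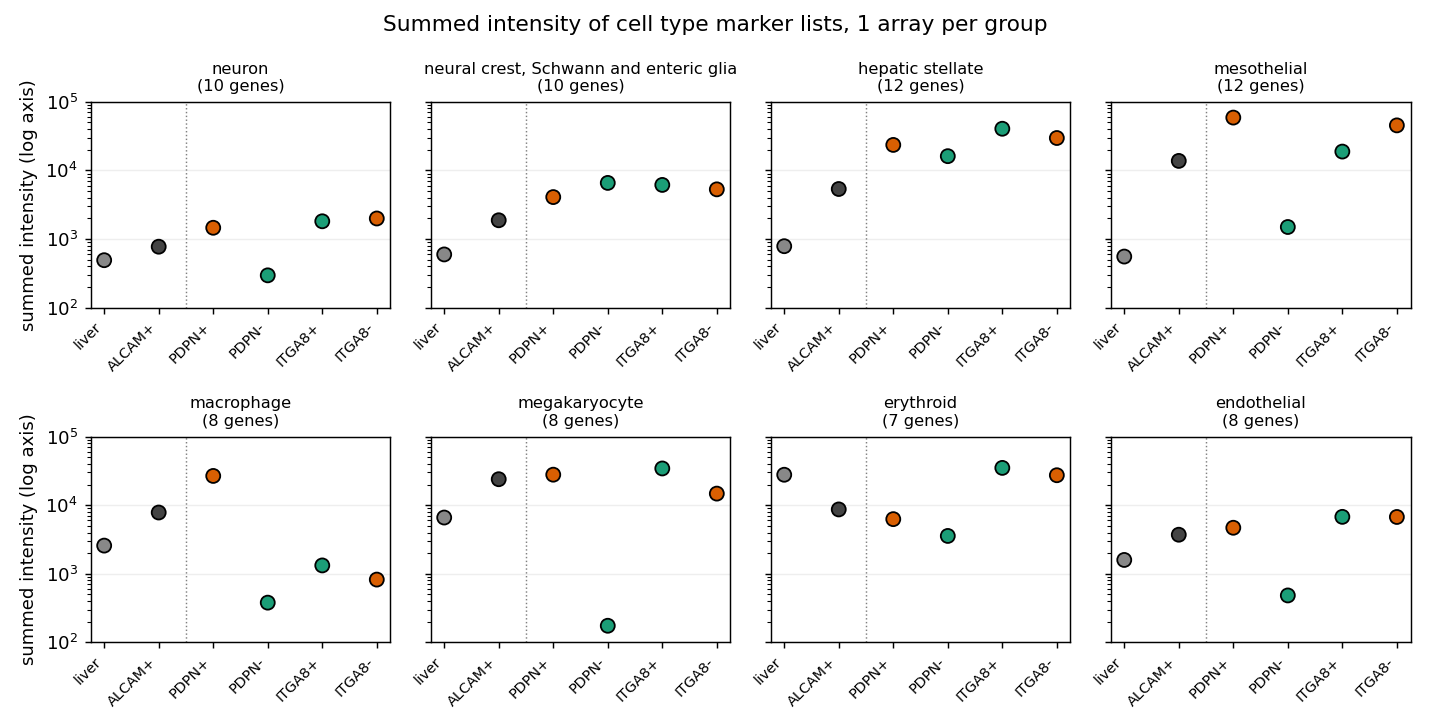
Summed intensity (log axis) of 8 marker lists on the 6 arrays, 1 point per array; green points are PDPN- and ITGA8+, orange PDPN+ and ITGA8-, and the dotted line separates liver and ALCAM+, which are on another scale. Neuronal sums stay between 296 and 1995 in the fractions, mesothelial sums range from 1499 to 58933, and erythroid sums are higher in the ITGA8 than in the PDPN fractions.

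Genes of most similar pattern were taken by the smallest root-mean-square difference between mean-centred log2 profiles over the 4 fractions; with 4 arrays many genes lie close to a flat profile, so the number of genes within 0.25 is given. For Ngfr only 4 genes lay that close: the nearest were Limch1 (0.09), Ddn (0.208) and Gdf10 (0.21), a growth factor gene of the BMP family. Limch1 had 2609 in ITGA8+ and 590 in ITGA8-, with 386 in PDPN- and 154 in PDPN+, the order of Ngfr. For Gabrb2, 4 genes lay within 0.25, and the nearest were Bcat1, of branched-chain amino acid breakdown, Aoc3 and Arhgdig (0.139 to 0.168). For Pnoc 2 did: Frem2, a matrix gene of epithelial basement membranes, at 0.212, and Ooep at 0.235, followed by Tm4sf5 at 0.261. No gene lay within 0.25 of Dcx, and the nearest were Shisa3 (0.407), Adcy5 (0.486) and Gpat2 (0.531).

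The other members had common profiles. Within 0.25 lay 139 genes for Ntf3 (nearest Nkain1, Tox2 and Phyhip), 183 for Reln (among the nearest Eif4ebp1 and Sp5), 357 for Gfap (Mbnl1, Stac2 and Zfp558), 387 for Nes (A930012O16Rik, Il1f8 and 2610030P05Rik) and 406 for Ntrk2 (Pex6, Kctd2 and Kctd7). Measured against Itga8 in the same way, Ntrk2 was the 217th nearest of 14502 genes, Reln the 595th and Ngfr the 1080th. Nes was the 8169th, Gfap the 9157th, Dcx the 9957th, Ntf3 the 11159th, Gabrb2 the 13325th and Pnoc the 14485th. Against Lrat, Reln was the 585th, Ngfr the 799th, Ntrk2 the 1097th and Dcx the 2171st. Nes was the 10224th, Gfap the 10357th, Ntf3 the 12532nd, Gabrb2 the 12887th and Pnoc the 14481st. Against Upk3b, the nearest members after Pnoc were Ntf3 (1222nd), Nes (2452nd) and Gfap (2643rd). For Ntrk2 only the ITGA8+ value exceeded the floor, so its ranks rest in large part on values below it. The ranks of Gfap rest on values of at most 144.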

How the data were processed

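RNA from 6 samples of E12.5 mouse liver was measured on Affymetrix Mouse Genome 430 2.0 arrays, 1 per group, after amplification of 20 ng of total RNA, per the labels' protocols. The authors deposited linear intensity values rounded to whole numbers. RMA and Partek were used, per the submitters' processing notes. Their versions and the build behind the array annotation were not stated in those sources. The 4 fraction arrays were on a scale of their own and carried no values for the 64 control probe sets.

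From these values log2(intensity + 16) was computed (Python 3.11.15, pandas 2.3.3). Of 45101 probe sets, 38011 named 1 gene; 5746 named none and 1280 several, and these were left out. Symbols came through Entrez identifiers from a RefSeq table of GRCm38.p6 for 92.11%. A gene was represented by the probe set of highest mean over the 6 arrays, and entered a comparison where the higher array exceeded 109.0. Members are called at 2-fold. No test was possible with 1 array per group, and the number of arrays limits the precision. The counting of calls was checked on simulated data. Members, lists and tests were chosen with earlier results of these data known. All members were named; from each list, the binding partners and family members of a member and the 2 largest differences past 2-fold in each direction. Some genes this rule names are not reported here. For members spanning at least 1 on the log2 scale, the 3 genes of most similar profile were named. Promoters came from RefSeq. Alternatives were other pseudocounts, floors, probe set summaries, quantile normalisation and 4-fold; the next highest probe set, and the counts over both splits and both sorts, were added after seeing the data.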

Additional observations from a re-analysis of the deposited data

How the results depend on the processing

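Of the 20 member differences past 2-fold, 19 kept their direction under the alternatives that gave a value, and 11 stayed past 2-fold under each of them. The exception in direction was Ntf3 in ITGA8+ minus PDPN+, at -0.29 with its next highest probe set against 1.22 with the higher one; the cause was not tested. The differences of Pnoc kept their call in all 4 comparisons (5.26 to 5.93 on the log2 scale in PDPN+ minus PDPN-, and -3.2 to -2.98 in ITGA8+ minus ITGA8-). Counts of members moved as follows, and their causes were not tested unless the alternative itself leaves fewer genes. Shares over all genes were computed at the main settings only, so nothing is read from the counts under the alternatives. Averaging all probe sets left 0 members 2-fold lower in PDPN+ than in PDPN-, 0 higher in ITGA8+ than in ITGA8-, 3 higher in ITGA8+ than in PDPN+, 0 lower in ALCAM+ than in liver, and 0 higher in both ITGA8+ and PDPN- within their sorts. Averaged in this way, Ngfr and Dcx were below the floor in PDPN+ minus PDPN- and Gfap in ALCAM+ minus liver, so they left those counts. Ntrk2 left both comparisons of ITGA8+ likewise, while Ngfr and Reln were at 0.73 and 0.91 in ITGA8+ minus ITGA8-. Quantile normalisation gave 5 higher in ITGA8+ than in ITGA8- and 2, instead of 1, higher on both counts. At 4-fold, 1 was higher and 1 lower in PDPN+, 1 higher in ITGA8+ than in ITGA8-, 3 higher in ITGA8+ than in PDPN+, 1 higher in ALCAM+, and 0 higher on both counts. A pseudocount of 64 left 2 higher in ALCAM+, and a floor at 2 times the median left 2 higher and 0 lower there, since fewer genes entered. With the next highest probe set, 1 was lower in PDPN+, 2 lower in ITGA8+ than in ITGA8-, and 2 lower in ALCAM+. Values below 109.0, such as those of Gfap in the PDPN fractions and of Ntrk2 outside ITGA8+, are not read as expression. Background signal was not measured. No paired test was made, since each group has 1 array. The mean of the within-sort differences over both sorts is a description only.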
